A study of Rattus norvegicus with 12 samples.

Results

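The globin genes of the rat liver data were followed through every preparation of the series, from isolated cells and nuclei to tissue sections, together with 3 genes that serve haemoglobin assembly and red cell function. The members were chosen by gene symbol, namely Hba-a2, Hba-a3, Hbb, LOC689064, LOC103694857, Alas2, Ahsp and Bpgm, 8 symbols that occupy 9 of the 32883 rows of the gene list because Hba-a2 stands on 2 rows with different Ensembl identifiers. The study mapped the healthy liver of male rats of the Dark Agouti (DA) and Lewis (LEW) strains with droplet RNA sequencing of cells from collagenase-digested total liver homogenate (TLH, 2 rats of each strain), of immune-enriched cells that went through extra washes and a red blood cell depletion (1 rat of each strain), and of nuclei (2 rats of each strain), and it added Visium sections of 2 livers of the Wistar strain. By the study's methods, parenchymal cells were also removed from the immune-enriched samples by centrifugation, and their kit version differed from that of TLH. Preparation and kit version thus differ together between these libraries too. No group received a treatment or carried an engineered allele, so strain and preparation are the contrasts. The design text gives 8 to 10 weeks of age for the TLH rats, while names of the deposited TLH data carry 10 weeks for DA and 13 weeks for LEW, and the study's methods describe the rats as age-matched at an age above both of these, so the sources differ, the age of the rats is uncertain and whether the strains differed in age was not settled. Ages of the other rats are not given in the labels.

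Haemoglobin is a tetramer of alpha and beta globin chains that each hold a haem group, and it fills the cytoplasm of maturing red cells, whose transcriptome becomes dominated by globin mRNA as other transcripts are lost. Reticulocytes keep this mRNA after the nucleus has been expelled, so a dissociated, blood-perfused organ such as the liver can bring globin transcripts into a library with circulating red cells, with residual haematopoiesis or as free RNA in the suspension. Free alpha chains are unstable, and erythroid cells balance both chains and bind surplus alpha globin with the chaperone encoded by Ahsp.

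Hba-a2 (ENSRNOG00000047321 and ENSRNOG00000029886) and Hba-a3 (ENSRNOG00000045989) are alpha globin genes, and Hbb (ENSRNOG00000058105) and LOC689064 (ENSRNOG00000061299) are beta globin genes, the latter named Hbb-bs under the same gene number in RefSeq. LOC103694857 (ENSRNOG00000054582) was counted as a globin row but was put in neither chain, because its number was not found in the RefSeq table. Alas2 (ENSRNOG00000000167) encodes the erythroid enzyme of the first, rate-limiting step of haem synthesis, Ahsp (ENSRNOG00000020165) the alpha globin chaperone, and Bpgm (ENSRNOG00000010133) the enzyme that makes 2,3-bisphosphoglycerate, which lowers the oxygen affinity of haemoglobin. Reads of near-identical globin copies can be shared, lost or assigned to the wrong copy when only uniquely mapped reads are counted, so the split between rows of 1 chain is less certain than the sum of the chain.

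The 120 bases before the RefSeq transcript start of the alpha and beta genes are shown because the members were found in the same cells, and they show how alike the members of a chain are. Sequences are from RefSeq on the build GRCr8, 5′ to 3′ on the gene's strand, which is the minus strand for all 4, and capitals mark the CCAAT box, the CACCC box and the letters ATAAA on either strand.
Hba-a2 at chr10:15829139-15829258: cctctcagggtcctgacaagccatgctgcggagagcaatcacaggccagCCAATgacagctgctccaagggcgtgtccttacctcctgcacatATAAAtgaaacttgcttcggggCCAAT
Hba-a3 at chr10:15816944-15817063: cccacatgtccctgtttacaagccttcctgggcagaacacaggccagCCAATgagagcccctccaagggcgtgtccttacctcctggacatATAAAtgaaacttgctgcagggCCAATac
LOC689064 (Hbb-bs) at chr1:167631631-167631750: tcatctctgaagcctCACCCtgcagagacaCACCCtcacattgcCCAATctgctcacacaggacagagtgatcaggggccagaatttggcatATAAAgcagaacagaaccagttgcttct
Hbb at chr1:167663722-167663841: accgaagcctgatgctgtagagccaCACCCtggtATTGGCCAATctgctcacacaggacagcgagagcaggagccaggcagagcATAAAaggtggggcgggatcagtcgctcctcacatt

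Both alpha genes held CCAAT at 2 places and ATAAA at 1, at 71, 5 and 27 bases before the start in Hba-a2 and at 73, 7 and 29 bases in Hba-a3, and neither held CACCC. Both beta genes held all 3 motifs, with CCAAT at 76 bases before the start in LOC689064 and at 86 and 81 bases in Hbb, where the matches are on opposite strands and adjoin, and with CACCC at 105 and 90 bases in LOC689064 and at 95 in Hbb. Over 33469 RefSeq promoter windows of the same length, 19.9% held CCAAT, 29.5% CACCC and 21.5% ATAAA on either strand, and 4.57% held AGATAA, the letters of a GATA site, which none of the 4 globin windows held. The windows of Alas2 (chrX:22895330-22895449) and Bpgm (chr4:64107157-64107276) held none of these motifs and 1 CCAAT, respectively. A match of letters is a description of the window and not a measured binding site. Of the 8 symbols, 6 were matched, and LOC103694857 and Ahsp were not.

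All values are counts of unique molecular identifiers (UMIs), which stand for captured mRNA molecules and are read near the 3′ end, so they were not divided by gene length. TLH libraries held 61441846 to 92484173 UMIs, nuclei 8039397 to 15186970, immune-enriched libraries 48255870 and 60005133, and Visium sections 34449562 and 34827603. After filters on UMIs and mitochondrial share, 3844 to 7112 cells were kept in a TLH library, 1163 and 2677 in the immune-enriched ones, 2205 to 5262 in a library of nuclei, and all 2437 and 2404 spots. Pairs of nuclei libraries shared 8 to 24 barcodes. The 2 sections shared 1793 spot barcodes, which mark positions on the array, and barcode names of the TLH and immune-enriched libraries were not used here. Intervals given with single libraries are exact 95% intervals that cover counting error only.

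Globin mRNA was most abundant in the immune-enriched libraries, the preparation with a red blood cell depletion and a removal of parenchymal cells, and scarce in TLH cells and nuclei. The 6 globin rows gave 57935 UMIs per 1000000 in the immune-enriched DA library and 28999 in the LEW library. In TLH they gave 465 and 172 UMIs per 1000000 in DA-1 and DA-2 and 112 and 1003 in LEW-1 and LEW-2, so that the strains overlapped and rats of 1 strain differed by as much as rats of different strains. In nuclei the values were 14.2 and 44.2 UMIs per 1000000 in DA and 3.96 and 153 in LEW, again with the LEW rats at both ends. Over all deposited barcodes, without the filters, the immune-enriched libraries gave 11902 UMIs per 1000000 in DA and 19663 in LEW, so the order of these 2 libraries turned with the choice of barcodes, and TLH gave 141 and 71.4 in DA and 101 and 207 in LEW. The Wistar sections, which hold undissociated tissue, gave 2748 and 2291 UMIs per 1000000. From the share of a whole library alone, fewer red cells, less globin mRNA per red cell and more RNA of other cells cannot be told apart. In kept cells the immune-enriched LEW library held more globin UMIs than DA, 1160797 against 562968, among 40028899 against 9717183 UMIs. Of these totals, 31331038 and 5089828 UMIs were in cells named hepatocyte-like further on.

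**Figure D1:**
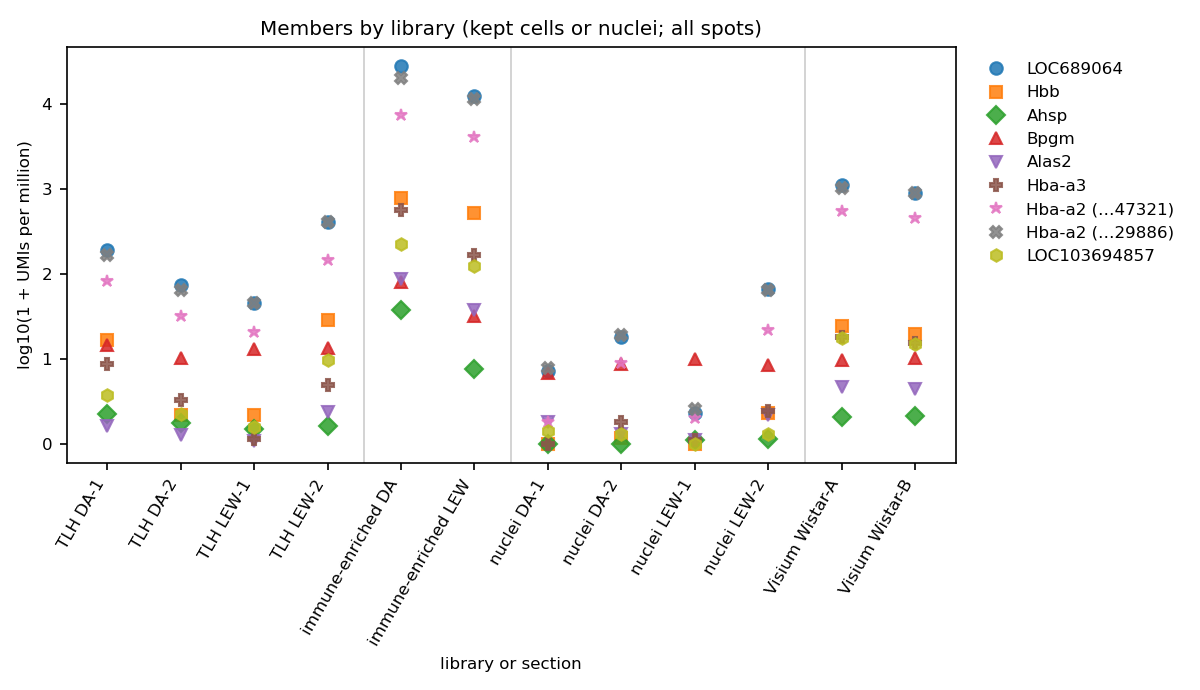
Log10 (1 + UMIs per 1000000) of each member in every library, kept cells or nuclei and all spots. The globin rows lie highest in the immune-enriched libraries, next in the Visium sections, and lower in TLH cells and nuclei, except that Hbb in TLH LEW-2, at 27.3, lies above the sections at 23.1 and 18.4, while Bpgm varies far less between preparations.

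LOC689064 carried most of the beta chain in every library. Its kept UMIs were 2460 and 1451 in TLH DA, 646 and 3942 in TLH LEW, 275236 and 506216 in immune-enriched DA and LEW, 31, 107, 14 and 452 in the nuclei and 38333 and 31071 in the sections. Hbb added 199, 23, 17 and 262 UMIs in TLH, 7715 and 21111 in the immune-enriched libraries, 0, 1, 0 and 9 in nuclei and 795 and 640 in the sections. Hbb therefore made up 7.48% and 1.56% of the beta chain in TLH DA and 2.56% and 6.23% in TLH LEW, against 2.03% and 2.02% in the sections, and the strains overlapped.

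Among the alpha rows the order was the same in every library and section, in nuclei on few UMIs, with Hba-a2 ENSRNOG00000029886 first, Hba-a2 ENSRNOG00000047321 second and Hba-a3 last. ENSRNOG00000029886 had 2138, 1254, 645 and 3892 UMIs in TLH, 200589 and 456885 in the immune-enriched libraries, 34, 113, 17 and 441 in nuclei and 35315 and 31372 in the sections. ENSRNOG00000047321 had 1060, 616, 285 and 1401 UMIs in TLH, 71728 and 164987 in the immune-enriched libraries, 4, 50, 11 and 146 in nuclei and 19052 and 15715 in the sections. This second row made up 26.3% to 32.2% of the alpha chain in TLH, 25.8% and 26.2% in the immune-enriched libraries and 34.7% and 33.0% in the sections.

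Hba-a3 was a minor alpha row with 99 and 45 UMIs in TLH DA and 2 and 38 in TLH LEW, which is 3.0% and 2.35% of the alpha chain in DA and 0.21% and 0.71% in LEW. The immune-enriched libraries gave the same order, with 5523 UMIs or 1.99% in DA and 6619 UMIs or 1.05% in LEW, and the sections held 1.07% and 1.06%. The DA libraries thus had the larger Hba-a3 share in both preparations of cells, without overlap between the 2 DA and the 2 LEW rats of TLH, an order noticed after the values were seen and in LEW-1 resting on 2 UMIs. Over all deposited barcodes the shares were 3.27% and 2.60% in TLH DA, 2.01% and 1.14% in TLH LEW, and 2.02% and 1.08% in the immune-enriched DA and LEW libraries. Nuclei did not show this order, with 0% and 2.98% in DA and 3.45% and 1.68% in LEW from 0, 5, 1 and 10 UMIs. LOC103694857 was low throughout, with 8 to 84 UMIs in TLH, 2177 and 4979 in the immune-enriched libraries, 0 to 2 in nuclei and 572 and 486 in the sections.

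Alas2, Ahsp and Bpgm did not follow the globins to the same degree. Alas2 had 8, 5, 1 and 13 UMIs in TLH, 841 and 1448 in the immune-enriched libraries, 4, 2, 1 and 8 in nuclei and 125 and 119 in the sections. Ahsp had 16, 15, 7 and 6 UMIs in TLH, 359 and 262 in the immune-enriched libraries, 0, 0, 1 and 1 in nuclei and 37 and 40 in the sections. Bpgm had 175, 184, 174 and 119 UMIs in TLH, 782 and 1245 in the immune-enriched libraries, 29, 48, 96 and 52 in nuclei and 298 and 322 in the sections, so it was found in every library, also where globin was scarce.

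In TLH cells nearly all globin sat in a handful of barcodes. A barcode was called globin-rich when at least 10% of its UMIs came from the 6 globin rows, a limit set after the values were seen. Of the kept barcodes, 13 in DA-1, 6 in DA-2, 2 in LEW-1 and 10 in LEW-2 were globin-rich, and they held 91.7%, 81.1%, 92.9% and 97.8% of the library's globin UMIs. Their median globin share was 22.7%, 20.7%, 34.0% and 36.8% of UMIs, and 1 of them, in LEW-2, passed 50%. These barcodes did not form a cluster of their own, which 2 to 13 barcodes could hardly do with 20 neighbours per cell and globin left out. Of them, 9, 6, 2 and 7 lay among the hepatocyte-like cells. That class made up 4352 of 6623, 2265 of 7112, 3420 of 5457 and 2436 of 3844 kept cells. The 20 listed hepatocyte markers gave 1303, 1674, 1286 and 1442 UMIs per 10000 non-globin UMIs in the globin-rich barcodes of the 4 rats, against 1283, 1445, 1350 and 1401 in the other kept cells, and 20, 20, 17 and 20 of the 20 were detected, with Fgb, Fga and Itih3 at 0 in LEW-1. Whether these barcodes hold a red cell in hepatocyte-derived free RNA or a red cell with a hepatocyte was not tested.

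The 3 accessory genes split differently between globin-rich and other TLH barcodes. Alas2 lay mostly in the globin-rich ones, with 6, 5, 1 and 13 UMIs against 2, 0, 0 and 0 in all other kept cells. Ahsp had 4, 0, 0 and 0 UMIs in the globin-rich barcodes against 12, 15, 7 and 6, and Bpgm 2, 4, 0 and 3 against 173, 180, 174 and 116. The globin-rich barcodes held only 25559, 13953, 4374 and 27402 UMIs of all genes, so these counts have to be read per UMI. Per 10000 UMIs, Bpgm stood at 0.783 (0.0948 to 2.83), 2.87 (0.781 to 7.34), 0 (up to 8.43) and 1.09 (0.226 to 3.20) in the globin-rich barcodes and at 0.135, 0.0907, 0.121 and 0.121 in the others, above them with intervals apart in DA-2 and LEW-2. Ahsp stood at 1.57 (0.426 to 4.01) against 0.00934 in DA-1, and the absence of its UMIs in the other 3 rats allows up to 2.64, 8.43 and 1.35 UMIs per 10000.

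A cluster of erythroid-like cells was found in the immune-enriched libraries and in no other. Cells were clustered with every globin and all members left out, and clusters were named from 28 listed erythroid markers that include no member, so the members did not define the clusters. The depth filter of 1000 UMIs counted globin, however, and globin gave 523371 of 607234 UMIs of the class in DA and 1081043 of 1228012 in LEW. Cells with few other UMIs could thus pass through their globin, so the globin shares of the class are not independent of the filter. The DA library held 104 erythroid-like cells and the LEW library 212, the latter in clusters of 126 and 86 cells. In these cells the globin rows made up 8619 of 10000 UMIs in DA (8596 to 8642) and 8803 in LEW (8787 to 8820). A DA cell held 576 to 9457 globin UMIs with a median of 5250.5, and a LEW cell 666 to 9932 with a median of 5716, so every cell of the class was globin-rich. The lowest globin share of a cell was 41.4% in DA and 58.0% in LEW, and the medians were 88.6% and 89.4%. A further 11 and 23 globin-rich cells lay in other classes of these libraries.

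The accessory genes were concentrated in the same cells. Relative to 10000 non-globin UMIs, Alas2 reached 93.6 in DA and 91.9 in LEW, Bpgm 74.0 and 56.1, and Ahsp 39.1 and 13.3. Alas2 was detected in 95 of the 104 DA cells and 178 of the 212 LEW cells. It was at 0 UMIs in every other class of the DA library once globin-rich barcodes were left out, and its highest count in LEW was 8 UMIs in 936 hepatocyte-like cells, whose median depth of 36052 UMIs was above the 6303 of the erythroid-like cells. Alas2 per non-globin UMI and the globin share of an erythroid-like cell had a Spearman rho of 0.69 over 104 cells and 0.61 over 212. This describes cells of 1 rat each that share library and depth. Both values rise as the non-globin UMIs of a cell fall, so a positive rho is partly built in.

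The 2 LEW clusters differed in how much of the accessory mRNA remained beside globin. The cluster of 126 cells had a median of 4716 UMIs and 57.7 Alas2, 27.9 Bpgm and 3.76 Ahsp UMIs per 10000 non-globin UMIs. The cluster of 86 cells had a median of 7507 UMIs and 129 Alas2, 87.3 Bpgm and 23.7 Ahsp UMIs per 10000. All 3 genes were therefore higher in the smaller cluster, as was Slc4a1, the anion exchanger of the red cell membrane, at 13.02 against 1.17. Hepatocyte RNA was present in both, since Alb stood at 297 UMIs per 10000 in the smaller and 430 in the larger cluster, against 30.5 in the DA cluster. Over the 20 hepatocyte markers, all detected, the erythroid-like cells held 92.9 UMIs per 10000 non-globin UMIs in DA and 1137 in LEW, so the lower LEW values of genes given per 10000 non-globin UMIs stand beside a higher hepatocyte share, and its part in them was not tested.

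Gene lists of red cell function show what else these cells held. A gene was counted as higher or lower when its level per 10000 non-globin UMIs differed from that of all other kept cells with counting intervals apart in both libraries, which with 1 rat of each strain is no test between groups. Of 11266 genes with at least 10 UMIs in both libraries, 182 were higher (1.62%) and 664 lower (5.89%), and the median log2 ratio over these genes was -0.99 in DA and -0.39 in LEW. Several listed genes are also among the markers that named the clusters, among them Slc4a1, Rhd, Epb42, Klf1, Ubb, Ybx3, Lgals5, Prdx2 and Fech, so their counts are not independent of the naming.

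Of the haem synthesis genes beyond Alas2, Urod, which makes coproporphyrinogen, and the terminal enzyme Fech were higher. Fech reached 12.6 UMIs per 10000 in DA and 10.9 in LEW, against 0.316 and 0.347 in other cells. Alad, the enzyme after Alas2, stood at 0.596 in DA and 1.43 in LEW, against 0.571 and 1.04, with overlapping intervals. Iron supply was higher for 3 of 7 genes, with Glrx5, which builds iron-sulphur clusters, at 29.1 and 27.1 against 1.17 and 1.48, the mitochondrial iron importer Slc25a37 at 0.477 and 0.953 against 0.0573 and 0.0403, and Fech. Its median log2 ratio was -0.32 in DA and 1.23 in LEW, so the sign differed between the libraries.

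Membrane genes were higher for 4 of the 5 with enough UMIs, namely Slc4a1, Epb42, Epb41 and Rhd, of 12 listed. Rhd, the Rhesus blood group gene, reached 9.66 and 5.72 UMIs per 10000, and Kel, the Kell antigen, had 17 and 6 UMIs in erythroid-like cells and 2 and 0 in all others. Among the regulators 2 of 5 were higher, the erythroid transcription factors Klf1 with 18 and 40 UMIs and Nfe2 with 20 and 13, while Gata1 had 2 and 3 UMIs and Zfpm1 stood at 0.119 and 0.408 per 10000 against 0.374 and 0.401. Lmo2, Tal1 and Epor had 0 UMIs in erythroid-like cells of both libraries, against 695 and 967, 35 and 101, and 6 and 28 UMIs in other cells. The median log2 ratio of the 5 regulators was -0.47 in DA and 0.02 in LEW, so the sign differed between the libraries. The enzymes and late erythroid genes were higher for 12 of 14, with Ubb, a ubiquitin gene, at 226 and 306, the cold-shock protein gene Ybx3 at 109 and 116, the peroxiredoxin gene Prdx2 at 80.2 and 84.1 and the galectin gene Lgals5 at 92.2 and 43.9 UMIs per 10000. Cat, encoding catalase, was the 1 lower gene, at 9.66 and 26.9 against 19.5 and 31.0.

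The embryonic globin Hbe1 had 6 UMIs in DA and 2 in LEW erythroid-like cells and 0 in all other kept cells. Of 6 cycling genes, Stmn1 had 0 UMIs and Hmgb2 1 UMI in the erythroid-like cells of each library and both were lower than in other cells, whereas Ube2c was higher at 2.03 and 3.33 UMIs per 10000 against 0.105 and 0.0421. By the likeness of their pattern across kept cells to summed globin, the leading non-members of 7150 genes were Lgals5 (mean Pearson r of log levels over the 2 libraries 0.84), Ybx3 (0.68), the carbonic anhydrase gene Car2 (0.66), the ubiquitin ligase gene Mkrn1 (0.56) and the iron-sulphur assembly gene Isca1 (0.53). The members themselves stood at 0.86 for Alas2, 0.68 for Bpgm and 0.58 for Ahsp.

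Outside the erythroid-like cells and other globin-rich barcodes, globin was low in most classes, and the highest class values rested on few cells. Over all other kept barcodes it amounted to 0.385, 0.325, 0.0796 and 0.222 UMIs per 10000 in TLH DA-1, DA-2, LEW-1 and LEW-2, 0.504 and 2.79 in the immune-enriched DA and LEW libraries, and 0.142, 0.442, 0.0396 and 1.23 in nuclei. The 2.79 of immune-enriched LEW rested on 6 of 2442 cells with at least 50 globin UMIs, without which it was 0.783, and without 1 such cell in TLH DA-1 and 2 in TLH DA-2 the values there were 0.263 and 0.148. In the hepatocyte-like cells of TLH, which should not transcribe globin, it was 0.187, 0.628, 0.0668 and 0.201 UMIs per 10000, with a globin UMI in 3.22%, 3.19%, 1.70% and 4.69% of cells at median depths of 1816, 3077, 2491 and 2277 UMIs. In DA-2, 350 of the 432 UMIs of this class were in the 2 cells with at least 50 globin UMIs, and without them the class stood at 0.119. T/NK-like cells of TLH DA-1 held 4.53 UMIs per 10000, with 157 of their 165 globin UMIs in a single cell, while those of the other 3 rats stood at 0.310, 0.0497 and 0.313.

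In the immune-enriched libraries the background was higher and uneven between classes. The DA classes lay between 0.230 in hepatocyte-like and 1.41 in monocyte/dendritic-like cells. In LEW they lay between 1.36 in T/NK-like and 20.7 in mesenchymal-like cells, with 8.80 in Kupffer-like cells, the resident macrophages of the liver. The mean was 35.7 globin UMIs per LEW mesenchymal-like cell and 10.7 per LEW Kupffer-like cell, while the median was 1 in both, so a few cells under the 10% limit carried these class values. Without the 2 cells with at least 50 globin UMIs in each of these classes, which held 2096 of 2177 and 1438 of 1662 UMIs, they stood at 0.814 and 1.20 UMIs per 10000, and the hepatocyte-like cells, without 2 such cells, at 0.524 in place of 1.87. The cells of highest depth held the most globin in LEW, with 9.70 UMIs per cell in the 25% of cells with the most UMIs and 0.711 in the 25% with the fewest, but per 10000 UMIs the order turned to 2.20 and 5.28. In the deepest 25% of cells 3 cells with at least 50 globin UMIs carried most of this, 1 of them with 2425, and without them the values there were 2.30 UMIs per cell and 0.521 per 10000.

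**Figure D2:**
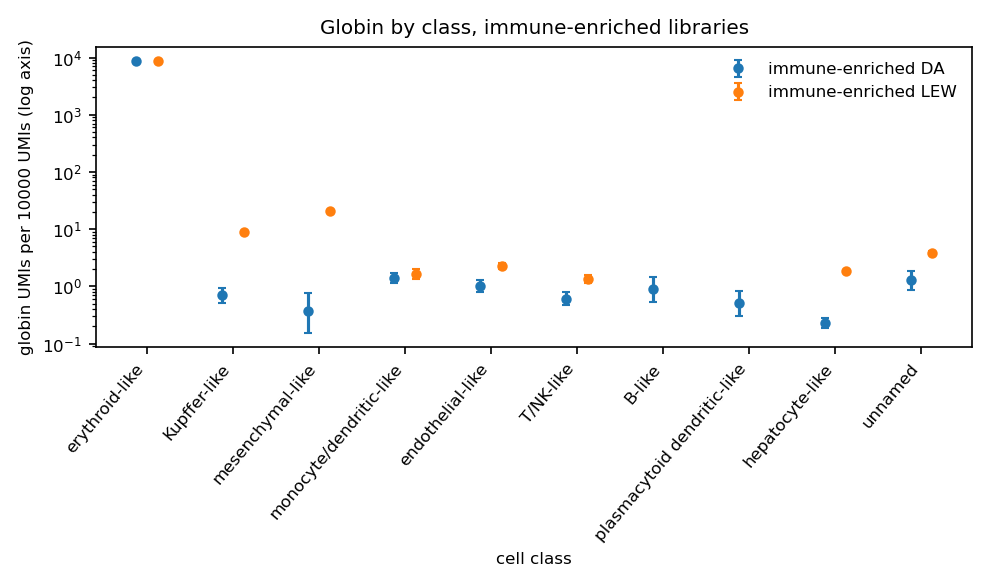
Globin UMIs per 10000 UMIs (log axis) by cell class in the 2 immune-enriched libraries. Erythroid-like cells, at 8619 in DA and 8803 in LEW, stand apart from every other class.

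The 2 Hba-a2 rows did not keep 1 ratio in all classes. In globin-rich barcodes of the 6 libraries of cells, ENSRNOG00000047321 held 26.1% to 32.7% of the Hba-a2 UMIs. In monocyte/dendritic-like cells that were not globin-rich it held 23 of 24 UMIs in TLH DA-1, 18 of 19 in DA-2, 6 of 6 in LEW-1 and 2 of 2 in LEW-2. In the same class of the immune-enriched libraries it held 72 of 80 UMIs in DA (90.0%, 81.2% to 95.6%) and 31 of 54 in LEW (57.4%, 43.2% to 70.8%). Over all other classes together the share was 32.5%, 41.0%, 38.9% and 39.7% in TLH and 23.9% and 31.2% in the immune-enriched libraries, so it was lower than in monocyte/dendritic-like cells in 6 of 6 libraries. The pattern was chosen after the values were seen and has no test. Whether the reads of this row in monocyte/dendritic-like cells come from Hba-a2 or from another transcript that is counted on it could not be settled from the counts.

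The other globin rows did not show the same excess in this class. The beta row LOC689064 had 1, 4, 0 and 2 UMIs in these TLH cells and 11 and 31 in the immune-enriched ones, and ENSRNOG00000029886 had 1, 1, 0 and 0 in TLH and 8 and 23 in the immune-enriched libraries. ENSRNOG00000047321 was detected in 16 of 86, 11 of 174, 5 of 94 and 2 of 40 monocyte/dendritic-like TLH cells and in 22 of 62 and 15 of 94 immune-enriched ones. Its cells were thus spread through the class, at 18.6%, 6.32%, 5.32% and 5.00% of TLH cells at median depths of 2031 to 2976.5 UMIs, against 0.828%, 1.04%, 0.373% and 1.21% of the other TLH cells at 1791 to 2539. In the immune-enriched libraries it was 35.5% against 4.77% of other cells in DA, at median depths of 10446.5 and 3723.5 UMIs, but 16.0% against 14.5% in LEW, at 4490 and 5486, so in LEW the class differed in the share of the row and hardly in its detection. The intervals of the share of this row in monocyte/dendritic-like cells and in all other classes together were apart in 5 of 6 libraries, with TLH LEW-2 as the exception.

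**Figure D3:**
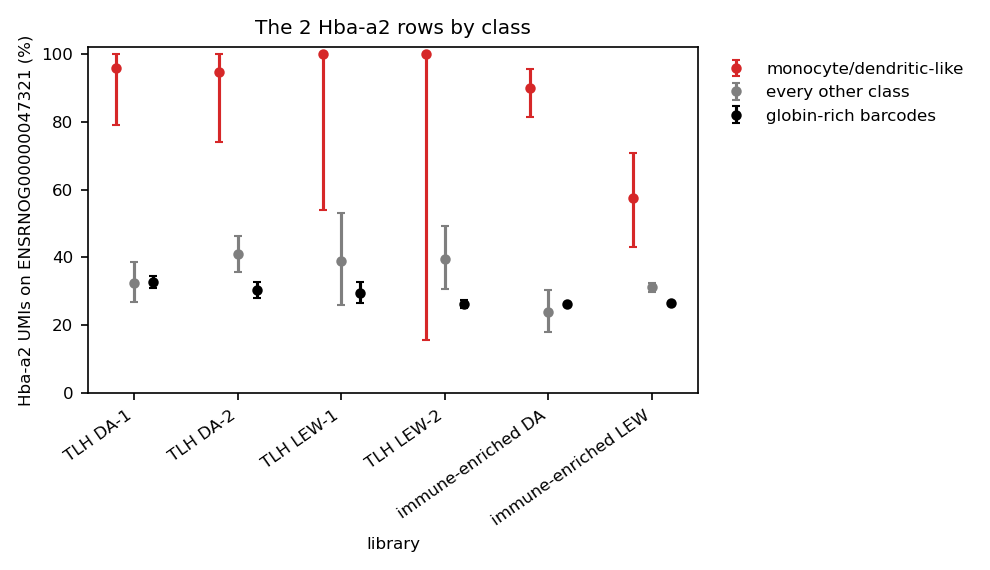
Share of Hba-a2 UMIs on the row ENSRNOG00000047321, in percent with exact 95% binomial intervals, for monocyte/dendritic-like cells, all other classes together and globin-rich barcodes of the 6 libraries of cells. The monocyte/dendritic-like share is the highest in each library, from 57.4% to 100%.

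Ahsp also appeared outside the erythroid-like cells, in few cells of single classes. In the immune-enriched DA library 5 of 27 mesenchymal-like cells held 15 Ahsp UMIs, with up to 9 in a cell, and in the LEW library 4 of 94 monocyte/dendritic-like cells held 50 UMIs, with up to 32 in a cell. Alas2 had 0 and 1 UMIs in these same classes. The remaining classes of both libraries held 0 to 6 Ahsp UMIs each when globin-rich barcodes were left out.

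The nuclei, a preparation that strips most of the cytoplasm, held 71, 278, 43 and 1060 globin UMIs in the kept barcodes of DA-1, DA-2, LEW-1 and LEW-2. No erythroid-like cluster was found among them. A single kept LEW-2 barcode was globin-rich, with 205 globin UMIs among 1941, and 1 DA-2 barcode under the depth limit held 484 globin UMIs among 719 (67.3%), the largest share of any barcode of nuclei. In LEW-2 the background reached every class, from 0.998 UMIs per 10000 in unnamed nuclei to 2.71 in Kupffer-like nuclei, with the globin-rich barcode left out, whereas in LEW-1 the highest class stood at 0.0905. Globin detection in nuclei thus differed between rats of 1 strain, with a UMI in 0.798% of LEW-1 and 21.7% of LEW-2 nuclei at median depths of 1541.5 and 2059 UMIs.

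TLH cells and nuclei were then compared over the 4 rats of each preparation with exact two-sided permutation tests, in which 4 against 4 allows no p below 0.0286, and p-values were adjusted by the method of Benjamini and Hochberg over 5 values. Summed globin was 3.52 higher in TLH cells on the scale of log2 (1 + UMIs per 1000000), 11.5-fold, which did not pass the threshold (exact permutation p = 0.0571, adjusted 0.0952), and the ranges overlapped because nuclei LEW-2 at 153 exceeded TLH LEW-1 at 112. When 1 rat was left out the difference ranged from 6.54-fold without nuclei LEW-1 to 20.5-fold without nuclei LEW-2, and over all deposited barcodes it was 1.85 on this scale, 3.61-fold (exact permutation p = 0.286). Without the globin-rich barcodes the difference was -0.16, so it rested on those few barcodes. Ahsp was 0.73 and Bpgm 0.61 higher in TLH cells on the same scale, each with every TLH library above every nuclei library (exact permutation p = 0.0286, adjusted 0.0714 for both), the smallest raw p this design can give. Alas2 differed by -0.03 (exact permutation p = 0.914, adjusted 0.914). Over all deposited barcodes the Alas2 difference was -0.43 (exact permutation p = 0.143, adjusted 0.238). Without globin-rich barcodes it was -0.57 (exact permutation p = 0.0571, adjusted 0.0952). The log2 alpha to beta ratio differed by -0.21 between TLH cells and nuclei (exact permutation p = 0.343, adjusted 0.429). With the most abundant row of each chain only, this ratio differed by -0.22 (exact permutation p = 0.0857). Preparation and kit version differ together between these groups and cannot be told apart. The study describes the rats of the nuclei as additional animals, but animal numbers in names of the deposited data resemble those of the TLH rats, so whether the groups share animals was not settled, and the tests treat them as separate.

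Strain was tested with edgeR's quasi-likelihood test on counts summed per rat, 2 DA against 2 LEW, across all genes that passed the filter on low counts. None of the 8 member rows tested in TLH cells passed an adjusted p of 0.05, against a background of 5.45% of 11133 genes called. The filters on TLH barcodes differed between the strains, and with a single filter 214 of 11667 genes were called. None of 7 rows passed in hepatocyte-like TLH cells, where the background was 3.17% of 9421 genes, and none of 4 in nuclei, where it was 1.46% of 11650. At an unadjusted p under 0.05 the count was 0 in all 3 fits, and DESeq2 called none either. Without the low-count filter, however, Hba-a3 passed the threshold in hepatocyte-like cells. Alas2 did not pass the filter in any of the 3 fits, and these p-values measure the spread between rats, here 2 of each strain.

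The estimates carried wide errors because globin varied so much within a strain. In TLH cells the LEW minus DA log2 change of LOC689064 was 0.83 with a standard error of 1.504 (adjusted p = 0.81, edgeR), and that of Hbb was 0.83 with 2.24 (adjusted p = 0.87, edgeR). Hba-a2 gave 1.02 with a standard error of 1.51 for ENSRNOG00000029886 and 0.59 with 1.40 for ENSRNOG00000047321. Hba-a3 gave -1.35 with 1.57 in all cells and -2.06 with 0.90 in hepatocyte-like cells (unadjusted p = 0.074, adjusted p = 0.34, edgeR). In all cells it ranged from -5.05 without LEW-2 (unadjusted p = 0.044, adjusted p = 0.33, edgeR) to -0.24 without LEW-1. The tightest estimates were those of Bpgm at 0.14 with 0.21 and Ahsp at -0.79 with 0.53, and neither passed the threshold. The sign of the main globin rows rested on LEW-2, since without this rat LOC689064 stood at -1.56. In the hepatocyte-like cells LOC689064 passed the threshold at 1.15 without LEW-1 and at -1.50 without LEW-2, in opposite directions.

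Among the listed red cell genes, TLH cells of LEW rats had lower Slc4a1 and higher Glrx5, Abcb10, Car2 and Stmn1, the calls of all 7 lists together. By list this was 0 of 8 haem synthesis genes, 1 of 3 membrane genes, 2 of 7 iron supply genes, 0 of 4 regulators, 1 of 13 enzymes and late genes, 0 of 1 other globin-fold genes and 1 of 6 cycling genes, with medians between -1.03 and 0.46 beside 0.01 over all genes, and these counts stand against the 5.45% of all genes tested that were called. In hepatocyte-like cells Slc4a1 and Car2 were called again, and in nuclei no listed gene was.

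The ratio of alpha to beta mRNA was above 1 in all libraries but 1. The ratio of alpha to beta UMIs in kept cells was 1.24 and 1.30 in TLH DA and 1.41 and 1.27 in TLH LEW. The immune-enriched libraries, with the most globin, gave 0.982 (0.977 to 0.987) in DA and 1.19 (1.19 to 1.20) in LEW. Nuclei gave 1.23 and 1.56 in DA and 2.07 and 1.30 in LEW, those of DA-1 and LEW-1 from few UMIs with intervals of 0.743 to 2.04 and 1.06 to 4.24, and the sections gave 1.40 and 1.501. The immune-enriched DA library was thus the 1 library under 1.

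Over all kept cells or nuclei the ratios of the strains overlapped in TLH and in nuclei. The LEW minus DA difference in mean log2 ratio was 0.07 in TLH and 0.25 in nuclei (exact two-sided permutation p = 0.667 in each), where 2 against 2 cannot go below 0.333. Without globin-rich barcodes, a setting chosen after seeing the data, the TLH ratios were 1.34 and 1.43 in DA and 1.17 and 1.32 in LEW. They did not overlap, with LEW lower, at a log2 difference of -0.15 (exact permutation p = 0.333, the smallest possible). With the monocyte/dendritic-like cells also left out, they were 1.23 and 1.38 in DA and 1.06 and 1.33 in LEW, which overlap. In hepatocyte-like TLH cells alone the ratios were 1.22 and 1.27 in DA and 1.41 and 1.34 in LEW, without overlap, a log2 difference of 0.14 (exact permutation p = 0.333, the smallest possible). These ratios were carried by the 9, 6, 2 and 7 globin-rich barcodes of the class, and without them they were 1.39 and 1.27 in DA and 1.00 and 1.29 in LEW, which overlap. The major alpha row over the major beta row, Hba-a2 ENSRNOG00000029886 over LOC689064, gave 0.869 and 0.864 in TLH DA and 0.998 and 0.987 in TLH LEW, without overlap between the strains (exact permutation p = 0.333, the smallest possible). The immune-enriched libraries had the same order at 0.729 in DA and 0.903 in LEW. Over all deposited TLH barcodes the same ratio was 0.868 and 0.886 in DA and 0.860 and 0.910 in LEW, so the separation was not present there.

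**Figure D4:**
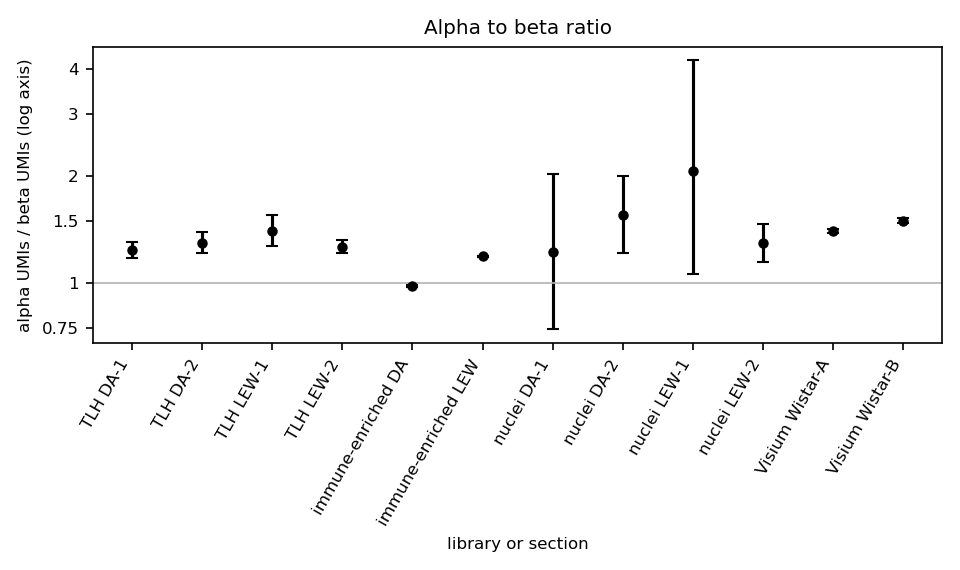
Ratio of alpha to beta globin UMIs in each library with exact 95% binomial intervals, on a log axis. The immune-enriched DA library lies just under 1 at 0.982, the TLH libraries lie between 1.24 and 1.41, and nuclei of 2 rats have wide intervals.

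Single erythroid-like cells varied around these values more than counting allows. The ratio was 0.986 over the DA and 1.20 over the LEW erythroid-like cells, with medians per cell of 0.999 and 1.18 and quartiles of 0.875 to 1.09 and 1.06 to 1.31. The alpha share of a cell had an SD of 6.66 percentage points in DA and 4.70 in LEW, where counting alone gives 0.871 and 0.851. The LEW cluster of 86 cells had a ratio of 1.29 and the cluster of 126 cells 1.11, so clusters of 1 rat differed by nearly as much as the 2 libraries did.

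Across the Visium sections globin was present in almost every spot, each a small area of tissue that can hold several cells. It was detected in 99.4% of 2437 spots of section A and 98.5% of 2404 spots of section B, at median depths of 13773 and 14240.5 UMIs. The median spot held 14.2 globin UMIs per 10000 in A and 10.8 in B, or 19 and 15 UMIs. The distribution had a long upper tail, with a 95th percentile of 115 and 106 and a maximum of 862 and 1254 per 10000. The 24 spots of highest share held 8.19% and 11.2% of all globin UMIs, and 0 and 1 spots passed the 10% limit of a globin-rich barcode. A low globin level was thus spread through the tissue, beside few spots of higher share. Globin share and depth of a spot had a Spearman rho of -0.15 in A and -0.18 in B. The 24 spots of highest share also had fewer UMIs on average than the rest. Contrasts of these spots with the rest therefore differ in depth as well, and its part in them was not tested.

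**Figure D5:**
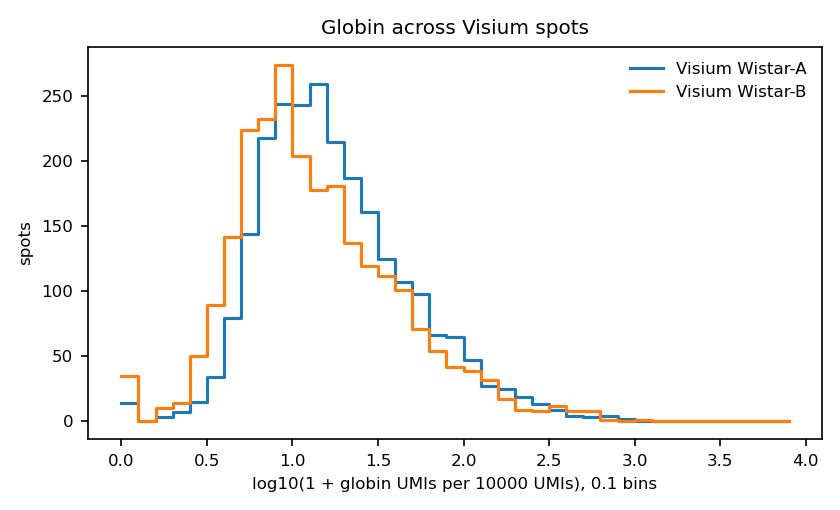
Number of spots by log10 (1 + globin UMIs per 10000 UMIs) in Visium sections A and B. Both sections have 1 broad peak, with medians of 14.2 and 10.8, and a tail that reaches 862 and 1254.

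The main alpha and beta rows were found in most spots and the accessory genes in few. LOC689064 was detected in 96.6% and 92.7% of spots, Hba-a2 ENSRNOG00000029886 in 97.7% and 95.4%, and Hba-a2 ENSRNOG00000047321 in 89.8% and 85.2%. Hbb was found in 23.3% and 19.5% of spots, LOC103694857 in 16.9% and 14.3%, Hba-a3 in 15.7% and 13.3%, Bpgm in 11.4% and 12.1%, Alas2 in 4.14% and 4.16% and Ahsp in 1.44% and 1.58%. Alas2 stood at 0.715 and 1.08 UMIs per 10000 in the 24 spots of highest globin share and at 0.0330 and 0.0291 in the rest. Ahsp stood at 0.179 and 0.361 against 0.00992 and 0.00981, and Bpgm at 0.238 and 0.541 against 0.0858 and 0.0903. The values in the 24 spots rest on 12 and 18 UMIs of Alas2, 3 and 6 of Ahsp and 4 and 9 of Bpgm, and the interval of Bpgm in section A, 0.0649 to 0.610, holds the value of the rest. The alpha to beta ratio was 1.84 and 1.93 in those 24 spots and 1.37 and 1.46 in the rest, and over the 1205 and 963 spots with at least 20 alpha and beta UMIs the SD of the alpha share was 9.65 and 10.1 percentage points, where counting alone gives 7.82 and 7.77.

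Globin share correlated weakly with the listed structures over spots, which share section and depth and are not replicates. Its Pearson r with the summed log level of hepatocyte markers was -0.22 in A and -0.27 in B, with erythroid markers 0.10 and 0.12, with pericentral genes 0.03 and 0.08, with periportal genes -0.04 in both, with Kupffer markers -0.03 and -0.09, and with vessel and portal tract genes -0.01 and 0.02. In the 24 spots of highest share, vessel and portal tract genes stood at 1.91 UMIs per 10000 (1.30 to 2.69) in A and 1.80 (1.22 to 2.57) in B, against 1.15 and 1.27 in the rest, with intervals apart in A and overlapping in B. Periportal genes were lower there in both sections, at 33.2 (30.5 to 36.0) and 32.0 (29.4 to 34.9) against 38.4 and 39.2. Pericentral genes stood at 27.9 and 36.1 against 31.1 and 33.2, and Kupffer markers at 8.64 and 6.85 against 9.09 and 10.3, lower with intervals apart in A alone for the former and in B alone for the latter. The gap was narrow for pericentral genes in A, with an upper limit of 30.5 against a lower limit of 30.9 in the rest. These levels and correlations count globin among the UMIs of a spot, so lists without globin fall as its share rises. Lower values in the spots of highest share and negative r are thus partly built in. Erythroid markers were higher in the 24 spots at 18.9 and 17.0 against 11.9 and 11.4, and hepatocyte markers lower at 2091 and 2040 against 2388 and 2413. The erythroid list also sums genes that other cells hold. Ubb, 1 of them, stood at 12.9 and 7.16 UMIs per 10000 non-globin UMIs in the other cells of immune-enriched DA and LEW. The level of this list and its r therefore do not stand for red cells alone. Of 7246 genes the non-members most like globin over spots were AY172581.24 (mean r 0.39), AY172581.9 (0.36), AABR07000398.1 (0.34), Mt-nd4 (0.32) and Mt-co1 (0.32), with Alas2 at 0.29, Ahsp at 0.11 and Bpgm at 0.09. Mt-nd4 and Mt-co1 are encoded by the mitochondrial genome, and so are the genes of rank 6 to 9. The genome of origin of AY172581.24, AY172581.9 and AABR07000398.1 was not looked up, so more of the leading genes may be mitochondrial. None of the leading genes of the erythroid-like cells was among these 5.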

How the data were processed

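UMI counts per gene and barcode were deposited by the authors as raw counts from Cell Ranger 3.1.0 or Space Ranger 1.1.0, per the labels, on a rat reference of build Rnor 6.0, without normalization. TLH and immune-enriched counts had no gene names, and their rows were matched in order to the gene list of the nuclei. Kept barcodes had at least 1000 to 2000 UMIs and at most 10% to 50% mitochondrial UMIs by library. In TLH the mitochondrial limit was 30% in DA-1, 20% in DA-2 and 40% in both LEW libraries. The UMI limit was 1500 in DA-1 and 2000 in DA-2, LEW-1 and LEW-2. Filter and strain thus differ together in the main TLH fit. Doublets were not called. Each library was clustered on its own (2000 variable genes, 15 components, 20 neighbours, resolution 0.6 for cells and 2.5 for nuclei) with globins and members left out, and a cluster was named "-like" from at least 3 of its listed markers, by rules set with the data in hand. The depths stand in the report. Counts summed per rat were tested with edgeR 4.0.16 (TMM, filter on low counts, Benjamini-Hochberg over all genes), and single values with exact permutation tests. On simulated counts the fit recovered 100% of genes changed by log2 2 in TLH cells (15 false calls among 11064 genes), 100% in hepatocyte-like cells (10 among 9325) and 90.5% in nuclei (4 among 11530), and 63.5%, 67% and 15% of genes changed by log2 1 (among 11070, 9372 and 11526 genes). The simulation gave every gene the same spread between rats and changed only genes with enough counts. The globin rows had standard errors of 1.40 to 2.24 in TLH cells, so these rates do not carry over to them. Alternatives were DESeq2 1.42.0, other normalizations, filters, barcodes and clusterings, a replicate block and leaving out each rat. The members and lists were chosen with earlier results of these data known. Besides members, the text names the 4 genes of each list with the highest level in erythroid-like cells, the 5 most like globin, and genes whose call is counted. It also names the regulators without a UMI in erythroid-like cells. 1 of the listed genes is not reported here.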

Additional observations from a re-analysis of the deposited data

Results flagged for a closer look

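Globin UMIs also lay in deposited barcodes that did not pass the filters. These barcodes entered only alternatives with wider limits, namely all deposited barcodes, a single filter or at least 500 UMIs. In TLH these barcodes held 2701 UMIs in DA-1, 3193 in DA-2, 7160 in LEW-1 and 6049 in LEW-2, which is 31.1%, 48.3%, 81.7% and 38.6% of each library's globin. They included 6, 7, 13 and 9 globin-rich barcodes, so most of the globin-rich barcodes of LEW-1 were outside the kept cells. The immune-enriched libraries held 11358 such UMIs in DA and 19079 in LEW, or 1.98% and 1.62% of their globin, with 7 and 32 globin-rich barcodes among them. Nuclei held 42, 654, 19 and 272, and the 654 UMIs of DA-2, 70.2% of its globin, included the barcode with 484.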

How the results depend on the processing

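No alternative brought a member past the threshold in TLH cells or in nuclei. The number of all genes called between strains moved from 607 in TLH cells to 1538 without the low-count filter, 397 with the replicate block, 214 with a single filter and 114 to 749 when 1 rat was left out, from 299 in hepatocyte-like cells to 827 without the filter and 149 to 373 without 1 rat, and from 170 in nuclei to 273 with DESeq2, 622 without the filter, 262 with the replicate block and 175 to 362 without 1 rat. Deviations of same-numbered rats correlated at -0.18 in TLH cells, -0.08 in hepatocyte-like cells and 0.11 in nuclei, but with 2 rats of each strain both pairs give 1 mirrored value, so this does not settle whether the numbers pair rats, and the crossed block, chosen after seeing the data, gave 837 calls in TLH cells. In hepatocyte-like cells 278 genes were called with the replicate block, under which LOC689064 stood at -0.16 and Hba-a2 ENSRNOG00000047321 at -0.21, against positive main values. Without globin-rich barcodes, also chosen after seeing the data, the TLH log2 changes were -1.24 for LOC689064, -0.55 for Hbb, -1.28 for Hba-a2 ENSRNOG00000047321 and -1.34 for ENSRNOG00000029886, the TLH difference in log2 alpha to beta ratio was -0.15, and globin in cells against nuclei was -0.16. Over all barcodes the TLH ratio difference was -0.032. When 1 rat was left out the log2 changes in TLH cells ranged from -1.56 to 1.68 for LOC689064, -2.75 to 3.55 for Hbb, -0.12 to 0.40 for Bpgm, -1.51 to 1.41 for Hba-a2 ENSRNOG00000047321, -1.35 to 1.87 for ENSRNOG00000029886 and -1.77 to 2.25 for LOC103694857, in hepatocyte-like cells from -1.50 to 1.15, -2.48 to 2.11, -1.42 to 0.95, -1.27 to 1.45 and -1.79 to 1.65 for the same genes without Bpgm, and in nuclei from -2.93 to 2.43 for LOC689064, -1.89 to 3.61 for Hba-a2 ENSRNOG00000047321 and -2.75 to 2.30 for ENSRNOG00000029886. The lowest of each came without LEW-2, except for Bpgm, where it came without DA-2, and Hbb also turned to -0.16 in TLH cells and -0.13 in hepatocyte-like cells without DA-2. Hba-a3 in hepatocyte-like cells passed the threshold at -2.06 without the low-count filter and at -4.81 without LEW-2, and both Hba-a2 rows did at 0.95 and 1.45 without LEW-1. The alpha to beta difference ranged from -0.0013 to 0.15 in TLH and -0.093 to 0.59 in nuclei, lowest without LEW-1 in each, and Alas2 in cells against nuclei from -0.25 to 0.13, turning positive to 0.06 without TLH DA-2, 0.13 without TLH LEW-1, 0.04 without nuclei DA-1 and 0.13 without nuclei LEW-2. Globin in erythroid-like cells was 8501 per 10000 in DA and 8733 in LEW with members kept in the clustering, and 8571 and 8754 with at least 500 UMIs. The median spot held 19 and 15 UMIs. Leaving erythroid-like cells out of TLH was not run, since no TLH cluster was named so. The causes of these shifts were not tested.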

Other observations

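The ratio of alpha to beta over all deposited barcodes was 1.23 and 1.36 in TLH DA, 1.33 and 1.19 in TLH LEW, 0.975 and 1.19 in the immune-enriched DA and LEW libraries, and 1.16, 1.42, 1.90 and 1.25 in the nuclei, so the immune-enriched DA library was the lowest here as well.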
